A study of Homo sapiens with 12 samples.

Results

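CD14, LY96 and the Toll-like receptor genes TLR1, TLR2, TLR4, TLR5, TLR6, TLR7, TLR8 and TLR9 encode the sensors with which monocytes and macrophages detect microbial lipids, proteins and nucleic acids. These 10 genes, of 19970 protein-coding genes, were chosen by name, and their H3K4me2 peaks were taken from the gene body and from 50 kb on either side of the canonical start site (GENCODE release 44, GRCh38). The windows held 117 of the 84577 regions formed by merging the peaks of all treatments.

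The mark H3K4me2, which is found on histones at promoters and enhancers, was profiled with ChIP-seq (immunoprecipitated chromatin, sequenced). The cells were U-937, a human line of the monocytic lineage, labelled as AML (acute myeloid leukaemia) cells. All cells belonged to this 1 line and were exposed for 24 h. The control group received DMSO, the vehicle. The ATRA group received all-trans retinoic acid, the ligand of the retinoic acid receptors, at 0.1 µM. The Corin group received 0.1 µM Corin, a synthetic molecule that inhibits both the demethylase LSD1, which acts on methylated H3K4, and the deacetylases that sit with it in the CoREST complex. The ATRA+Corin group received both at 0.1 µM each. Each treatment had 2 H3K4me2 libraries and 1 input library, and the labels do not say whether the libraries came from separate cultures. The files hold 1 pooled peak list per treatment, so the spread between replicates is unknown, no test between treatments was possible, and each difference given here is a difference between lists. Intervals are 95% intervals and cover counting error only.

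As background, TLR4 senses bacterial lipopolysaccharide together with the LY96 product MD-2, to which CD14 hands over the ligand. TLR2 pairs with TLR1 or TLR6 to bind lipopeptides and TLR5 binds flagellin, all at the cell surface, whereas TLR7, TLR8 and TLR9 sense RNA or DNA in endosomes. The receptors signal through adaptors such as MyD88 to NF-kappaB and interferon regulatory factors, and several of them are acquired or raised when myeloid precursors mature.

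The lists held 65172 (DMSO), 66385 (ATRA), 73997 (Corin) and 83969 (ATRA+Corin) peaks. From the deposited fold and p-values the number of H3K4me2 fragments over each summit was recovered, and, taking DMSO as 1, the relative depth was 1.02 with ATRA, 1.10 with Corin and 1.20 with both drugs. Fragment numbers below are scaled to the DMSO depth unless stated. Longer lists and deeper libraries therefore moved together with the combination, and gains at equal depth are given below. In the DMSO list, a peak lay within 1 kb of the start site of 8 of 9 monocytic and myeloid marker genes, all but MPO. The same held for 1 of 4 T lymphoid (CD2) and 1 of 4 erythroid markers (KLF1), and each of these counts was equal in all lists.

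The sequences below are examples whose H3K4me2 coverage differed between the lists, with TLR9 as the example covered in all of them. For TLR8, TLR6 and TLR9 they are the 250 bases before the start site (RefSeq, GRCh38.p14, strand of the gene). For TLR7 the sequence is 300 bases around a peak summit (GRCh38, plus strand). Capitals mark matches, on either strand, to GAGGAA (PU.1), TTGCNNAA (C/EBP), TGANTCA (AP-1), AGGTCA (retinoid receptor half-site) or the NF-kappaB motif.
TLR8 upstream, chrX:12906370-12906619: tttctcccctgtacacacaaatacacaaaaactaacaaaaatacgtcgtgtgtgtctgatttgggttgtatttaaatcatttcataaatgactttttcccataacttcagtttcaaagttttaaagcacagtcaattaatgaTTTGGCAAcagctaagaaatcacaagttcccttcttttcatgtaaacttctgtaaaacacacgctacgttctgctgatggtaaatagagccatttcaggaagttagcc
TLR6 upstream, chr4:38856818-38857067: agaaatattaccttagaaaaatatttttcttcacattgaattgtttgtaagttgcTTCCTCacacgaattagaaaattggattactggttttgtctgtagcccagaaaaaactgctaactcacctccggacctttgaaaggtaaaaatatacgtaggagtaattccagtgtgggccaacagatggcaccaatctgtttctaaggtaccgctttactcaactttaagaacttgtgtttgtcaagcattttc
TLR9 upstream, chr3:52225646-52225895: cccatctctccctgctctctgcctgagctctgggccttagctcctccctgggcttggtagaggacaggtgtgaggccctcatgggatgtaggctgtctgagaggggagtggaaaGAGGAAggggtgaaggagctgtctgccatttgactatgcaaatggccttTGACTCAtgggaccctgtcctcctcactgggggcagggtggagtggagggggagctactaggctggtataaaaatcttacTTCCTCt
TLR7 intronic region gained with Corin, chrX:12874410-12874709: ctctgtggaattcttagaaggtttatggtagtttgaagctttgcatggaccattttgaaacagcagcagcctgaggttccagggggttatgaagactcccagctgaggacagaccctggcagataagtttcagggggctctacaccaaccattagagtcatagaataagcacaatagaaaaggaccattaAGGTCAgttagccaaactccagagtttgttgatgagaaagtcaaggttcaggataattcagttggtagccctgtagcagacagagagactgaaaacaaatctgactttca
The stretch before TLR8 held 1 C/EBP match, that before TLR6 held 1 PU.1 match, and that before TLR9 held 2 PU.1 matches and 1 AP-1 match. The TLR7 region held 1 retinoid receptor half-site. A match is a match of letters, and binding was not measured.

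The combination list, the longest of the 4 lists, held more H3K4me2 regions than any other list at 5 of the 10 genes (TLR1, TLR6, TLR7, TLR8 and TLR9). The same share was not computed for all genes. More regions than with Corin were found at these same 5 genes, beside 49.7% of all protein-coding genes. Each region counted once, the windows held 68 regions with a DMSO peak, 69 with an ATRA peak, 79 with a Corin peak and 104 with an ATRA+Corin peak. More regions with ATRA+Corin than with DMSO were found at 7 of the 10 genes (CD14, TLR1, TLR4, TLR6, TLR7, TLR8 and TLR9), against 62.2% of all protein-coding genes. LY96, TLR2 and TLR5 had equal numbers in both lists. The median gene of the group had 4.5 more regions, compared with 1 over all genes. This median was 2 for peaks with a −log10 q of 5 or more and 1.5 with lists made equally long or a 10 kb window, and it counts some regions for 2 genes. Of the regions gained with the combination, 4 were in the windows of both TLR1 and TLR6 and 6 in those of both TLR7 and TLR8. With Corin alone 6 of the 10 genes had more regions than with DMSO, beside 45.1% of all genes, and with ATRA alone 2 did (CD14 and TLR8), beside 33.5%.

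**Figure D1:**
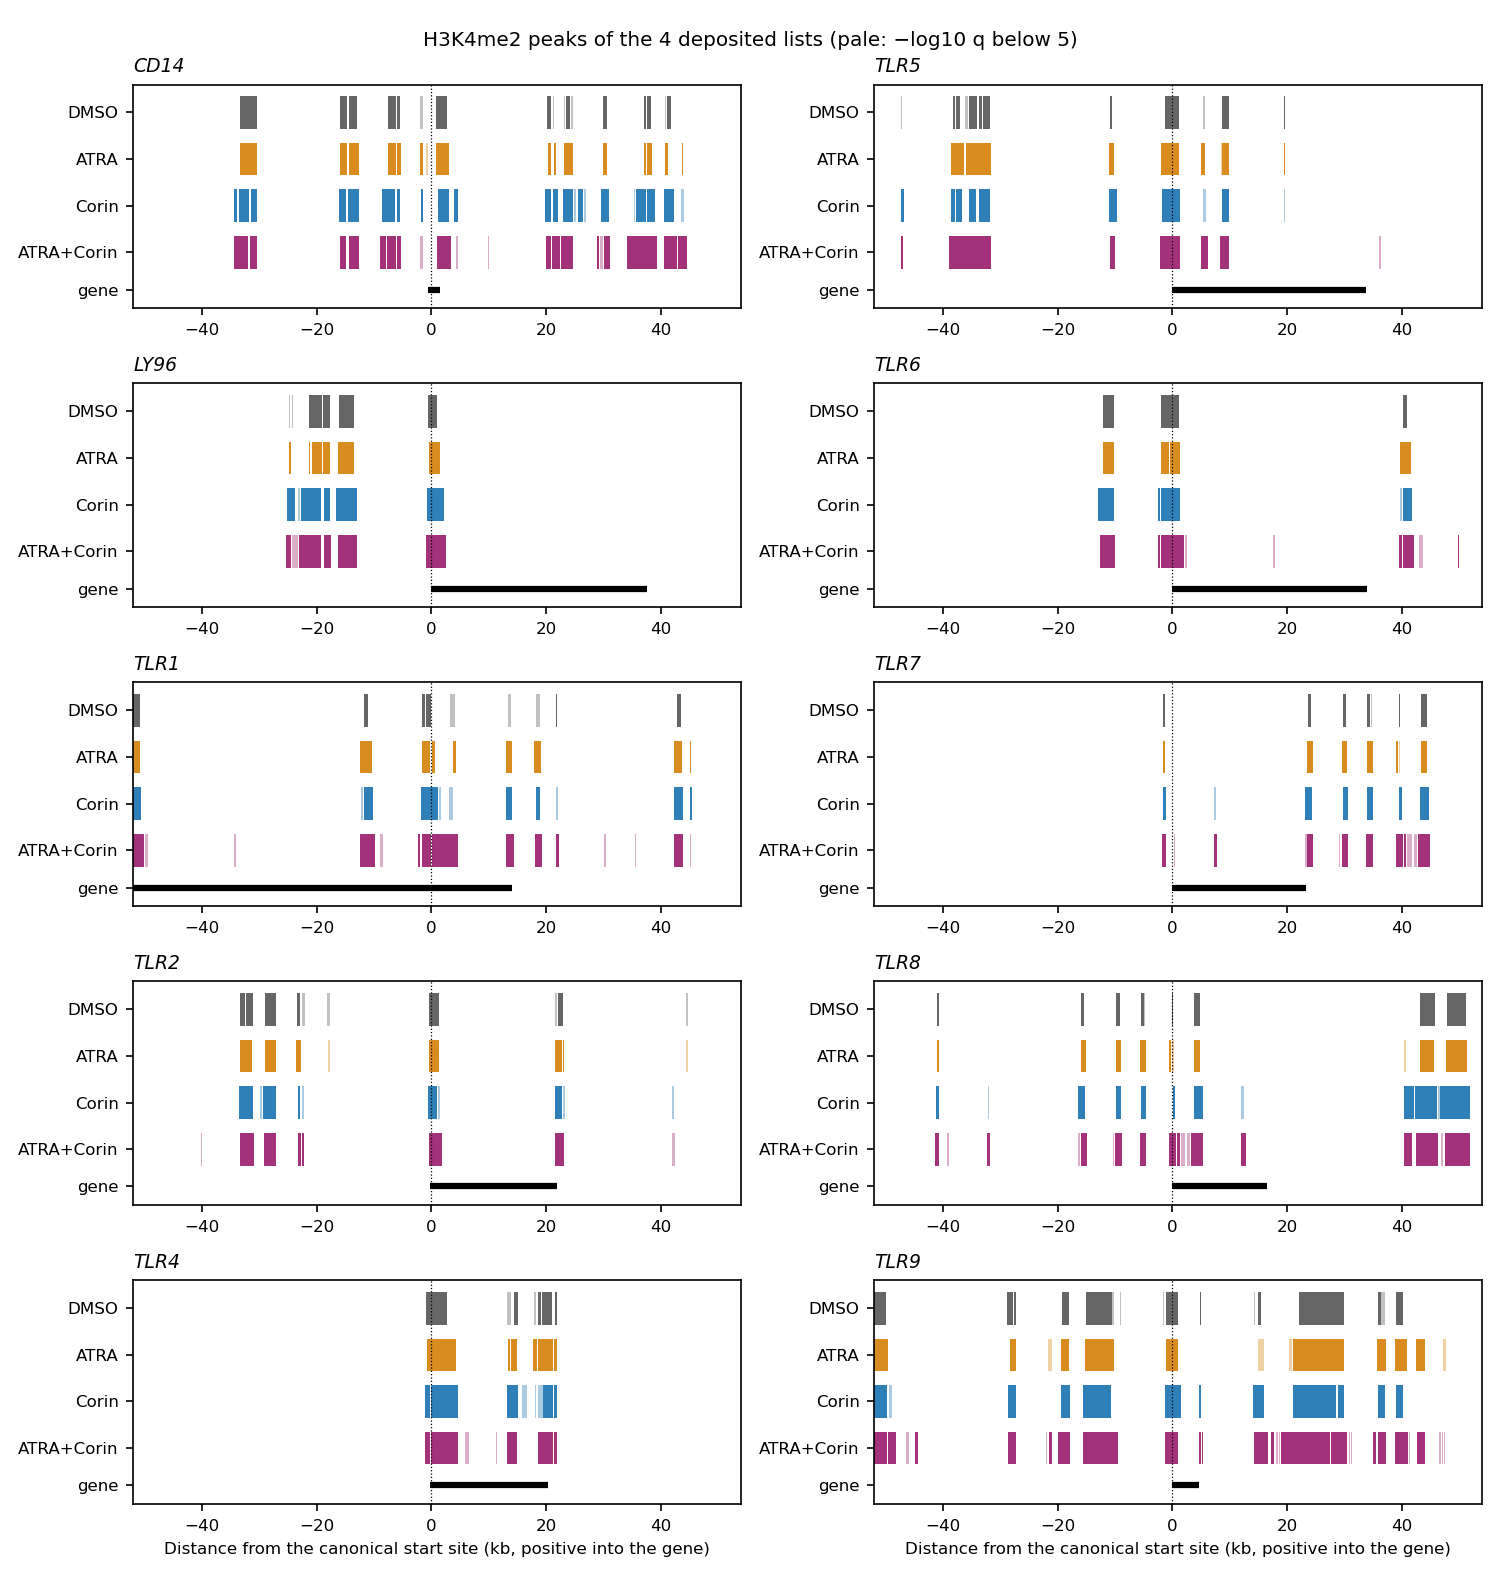
H3K4me2 peaks of the 4 lists around the 10 genes, by distance from the canonical start site (horizontal axis, kb, positive into the gene). Coloured blocks are peaks, pale where −log10 q is below 5, and the black bar is the gene; peaks of the ATRA+Corin list are added in the gene bodies of TLR8 and TLR1 and on both sides of TLR9, whereas LY96 has the same 5 regions in all lists.

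A gained region here is one with a peak after treatment and without one in the reference, and a lost region is the opposite. ATRA gained 7 and lost 6 of the 75 regions present with ATRA or DMSO. Its gained share was 9.33% (4.59 to 18%), against 16.4% of all regions, and its lost share was 8.0% (3.72 to 16.4%), against 7.58%. With Corin, 15 of 83 regions were gained, or 18.1% (11.3 to 27.7%) against 22.4% of all regions, and 4 were lost, or 4.82% (1.89 to 11.7%) against 7.46%. Neither single drug thus had a gained share above that of the genome around these genes.

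With ATRA+Corin, 42 of 110 regions were gained against DMSO, or 38.2% (29.6 to 47.5%), beside 34.9% of all regions. The lost regions numbered 6, or 5.45% (2.52 to 11.4%), beside 4.55%. Both shares included the genome-wide value in their intervals, so the gain around these genes was near the background. Against ATRA alone the combination gained 40 of 109 regions, or 36.7% (28.2 to 46.1%), beside 28.4%, and lost 5, or 4.59%, beside 4.97%. Against Corin alone it gained 33 of 112, or 29.5% (21.8 to 38.5%), beside 24%, and lost 8, or 7.14%, beside 6.59%. The TLR9 window held 15 of the 40 regions gained against ATRA and 16 of the 33 gained against Corin. Counted by gene, the combination had more regions than ATRA at 9 of the 10 genes, all but LY96, beside 56.9% of all genes. The median difference was 3.5 regions, 1 at a −log10 q of at least 5 and 0.5 with lists made equally long. With equally long lists CD14, LY96, TLR2 and TLR5 had no difference from ATRA and TLR4 had −1. The combination had at least 1 gain over ATRA at 9 genes, beside 63.2%, and at least 1 loss at 4, beside 21.6%, with more covered length at all 10, beside 81.5%. It had more regions than Corin at 5 genes (TLR1, TLR6, TLR7, TLR8 and TLR9), beside 49.7%, and fewer at CD14. There, 9 genes had a gain, beside 59%, 5 had a loss, beside 28.7%, and 9 had more covered length, all but TLR4, beside 70.7%. The contrasts share lists, so they are not independent of each other.

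Most gained regions were weak. The median −log10 q, the authors' value within the ATRA+Corin list, was 3.44 for the 42 gained regions and 33.4 for the regions shared with DMSO. Over all regions gained with the combination it was 4.45. Of the 42, 15 had a −log10 q of 5 or more, or 35.7%, beside 42.0% of all gained regions. The summits held 13 to 41 fragments, unscaled, with a median of 21.5, compared with 24 over all gained regions. Among peaks with a −log10 p of at least 5, with depth left as it was, 25 of 86 regions were gained against DMSO, or 29.1%, beside 32.0% of all regions. With the same minimum and fragments set to equal depth, 22 of 83 were gained, or 26.5%, beside 29.0%. Most of the fall from 38.2% was thus present with the minimum alone, and both shares were near the background. The gained regions had a median distance to a DMSO peak of 1729 bp, compared with 4675 bp over all gained regions.

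**Figure D2:**
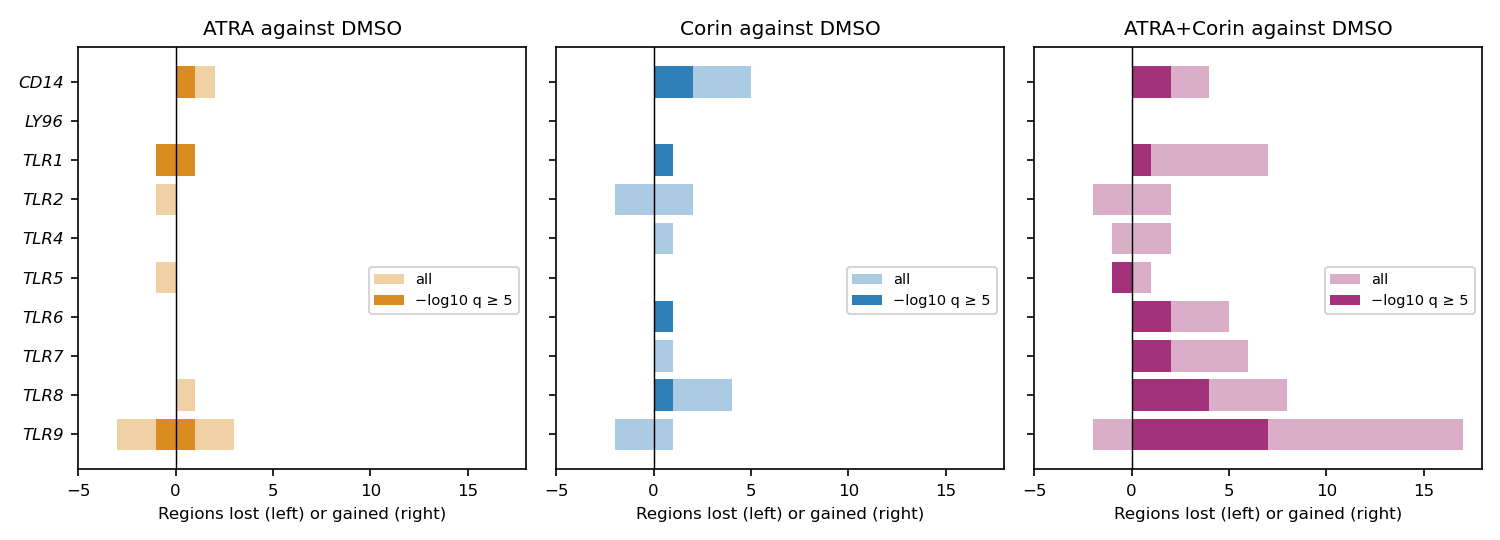
Regions gained (right) and lost (left) against DMSO per gene, for ATRA, Corin and ATRA+Corin; dark bars are regions with −log10 q of at least 5. TLR9 has the longest bar, 17 gained and 2 lost with ATRA+Corin, and LY96 has none in any contrast.

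The regions present in all 4 lists numbered 58, or 49.6% of the 117 (40.7 to 58.5%), beside 51.2% of all regions. Regions held by the ATRA+Corin list alone numbered 30, or 25.6% (18.6 to 34.2%), beside 16.3%. In percentage points this pattern differed most between the 10 genes and the whole set. Of the 30, 13 lay in the TLR9 window, which held 29 of the 117 regions. The patterns were counted in the lists as deposited only, not in the alternatives given below. Regions held by Corin and ATRA+Corin alone numbered 6, or 5.13%, beside 7.31%, and those held by ATRA and ATRA+Corin alone numbered 3, or 2.56%, beside 3.59%.

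**Figure D3:**
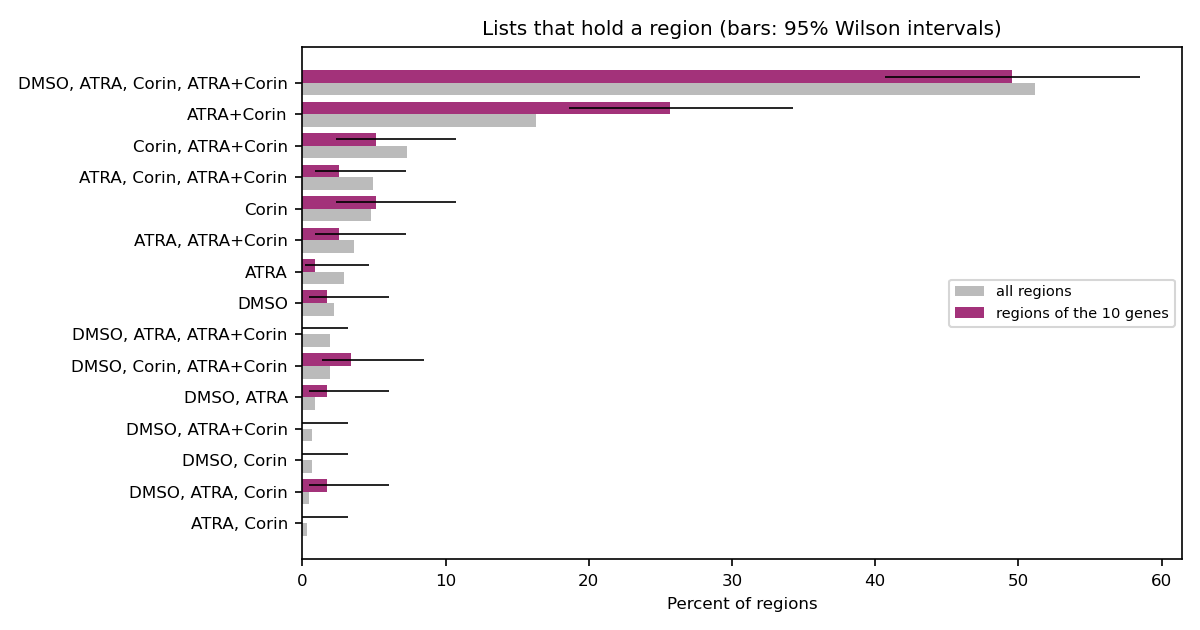
Percent of regions (horizontal axis) held by each combination of lists, for the 117 regions of the 10 genes (purple, with 95% Wilson intervals) and for all 84577 regions (grey). The regions of the ATRA+Corin list alone make up 25.6% around these genes, where 13 of 30 lie in the TLR9 window, and 16.3% of all regions.

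Regions kept in all lists were wider after treatment. Across the 58 shared regions, the median ratio of the length under peaks to that under DMSO was 1.17 with ATRA, 1.32 with Corin and 1.58 with ATRA+Corin. The same medians over all regions shared by the 4 lists were 1.09, 1.19 and 1.26. Together with the added regions, this made the covered length in the window larger than with DMSO at all 10 genes with Corin, beside 80.3% of all genes, and at all 10 with the combination, beside 83.7%. With ATRA it was larger at 9 genes, beside 69.2%, the exception being TLR2. The median ratio of covered length, ATRA+Corin to DMSO, was 1.84 over the 10 genes and 1.36 over all genes, and ran from 1.11 at TLR2 to 2.91 at TLR1. Depth differed between the lists in the same order as these medians, and its part in the widths was not tested.

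**Figure D4:**
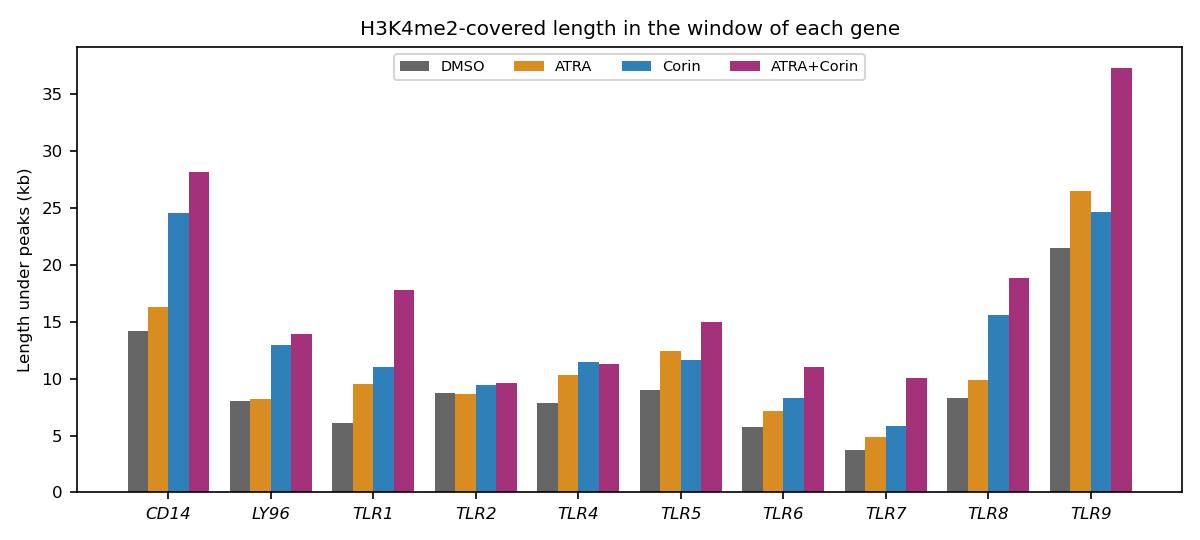
Length under H3K4me2 peaks (vertical axis, kb) in the window of each gene, 1 bar per list with no replicate error. The ATRA+Corin bar is the longest at every gene except TLR4, where the Corin bar is slightly longer; TLR9 has the longest bars in all lists, up to 37.3 kb.

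CD14, the surface co-receptor for lipopolysaccharide (chromosome 5, 140631728 to 140633700, minus strand), had many regions in its window but no peak over its start site in any list. Its window held 14 regions with DMSO, 16 with ATRA, 19 with Corin and 18 with ATRA+Corin. The covered length was 14.2, 16.3, 24.6 and 28.2 kb in the same order, so both Corin-containing lists stood above the other two. Of the 18 regions with DMSO or ATRA+Corin, 9 lay nearest to the CD14 start. The others lay nearest to SLC35A4, TMCO6, NDUFA2, IK or WDR55, and the covered length includes them. Of the 250 bases before the start site, 0 lay under a peak in each list. The region over the CD14 exons, 0.816 kb into the gene, held 45.0 fragments with DMSO (32.8 to 60.2), 55.1 with ATRA, 39.2 with Corin and 52.6 with ATRA+Corin (40.4 to 67.2). These intervals overlapped.

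Downstream of CD14, more regions differed between the lists. A region 3.89 kb into the window from the start site, past the end of the gene, had no DMSO or ATRA peak and held 34.6 fragments with Corin (24.5 to 47.5) and 19.2 with ATRA+Corin (12.2 to 28.8). Of 3 regions between 24.9 and 26.7 kb, all were in the Corin list alone. The strongest region gained against DMSO lay 43.0 kb away, nearest to the start of SLC35A4, with 20.7 fragments with ATRA, 21.9 with Corin and 34.2 with ATRA+Corin (24.5 to 46.4). Next to it, 40.6 kb away and also nearest to SLC35A4, a region in all lists held 47.0 fragments with DMSO (34.5 to 62.5), 50.2 with ATRA, 65.6 with Corin and 88.4 with ATRA+Corin (72.4 to 107). There the intervals of DMSO and ATRA+Corin did not overlap. Regions 19.8 and 22.6 kb away were highest with ATRA, at 105 and 107 fragments, compared with 47.0 and 69.0 with DMSO, and neither pair of intervals overlapped. The combination gained 2 and lost 3 CD14 regions against Corin alone, and this sign turned to +1 with a 10 kb window, with nearby peaks merged, and with the −log10 p minimum at equal depth.

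LY96, which encodes the lipopolysaccharide-binding partner of TLR4, is on chromosome 8 on the plus strand and had 5 regions in every list. None was gained or lost in any contrast. The covered length was 8.01 kb with DMSO, 8.19 kb with ATRA, 13.0 kb with Corin and 14.0 kb with ATRA+Corin. The peak over its start site held 109 fragments with DMSO (89.5 to 131), 148 with ATRA (125 to 173), 123 with Corin (103 to 146) and 161 with ATRA+Corin (139 to 185). This was the highest start site value of the 10 genes in the ATRA, Corin and ATRA+Corin lists, and the DMSO and ATRA+Corin intervals did not overlap. The region over the start site was 1563 bp under peaks with DMSO and 3537 bp with ATRA+Corin. The other 4 regions lay over or near ELOC and TMEM70.

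TLR4, the signalling receptor for lipopolysaccharide (chromosome 9, 117704175 to 117724735, plus strand), was covered at its start in all lists. A second annotated gene, ENSG00000285082, shares this start site, and the peaks cannot be assigned to one or the other. The start-site peak held 76.0 fragments with DMSO (59.9 to 95.1), 69.9 with ATRA, 58.3 with Corin and 73.4 with ATRA+Corin (58.9 to 90.5), and all intervals overlapped. The position of the peak differed between the lists. Of the 250 bases before the start, 250 were covered with DMSO and with ATRA, 84 with Corin and 75 with ATRA+Corin. The summit of the peak over the start lay 100 bp into the gene with DMSO, 1186 bp with ATRA, 2038 bp with Corin and 2707 bp with ATRA+Corin. Further in, a region 18.5 kb from the start and over a TLR4 exon held 45.0 fragments with DMSO (32.8 to 60.2), 80.7 with ATRA (64.2 to 100), 52.0 with Corin and 87.6 with ATRA+Corin (71.7 to 106). The 2 lists with ATRA were thus above DMSO there beyond counting error. TLR4 gained 2 regions and lost 1 with ATRA+Corin against DMSO, and the difference of +1 became −1 when the lists were made equally long.

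TLR2, the lipopeptide receptor (chromosome 4, 153684070 to 153706260, plus strand), had the smallest ratio of covered length. Its window held 8 regions with DMSO, 7 with ATRA, 8 with Corin and 8 with ATRA+Corin, covering 8.72, 8.65, 9.42 and 9.66 kb. The peak over its start site held 109 fragments with DMSO (89.5 to 131), 101 with ATRA (82.7 to 123), 66.5 with Corin (52.2 to 83.7) and 73.4 with ATRA+Corin (58.9 to 90.5). The Corin interval lay below that of DMSO, and that of ATRA+Corin overlapped it slightly. All 250 bases before the TLR2 start were covered in every list. A region 17.7 kb upstream was present with DMSO and ATRA and absent from both lists with Corin. It was weak, with 15.0 and 17.7 fragments.

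TLR1 and TLR6, the partners of TLR2 in lipopeptide binding, are neighbours on the minus strand of chromosome 4 and share regions, since the annotated TLR1 gene body (38790677 to 38856817) reaches the TLR6 start. TLR1 had 7 regions with DMSO, 7 with ATRA, 8 with Corin and 14 with ATRA+Corin. Its covered length was 6.10, 9.54, 11 and 17.8 kb, the largest ratio to DMSO among the 10 genes. The TLR1 start site itself was under a peak in the Corin list alone, with peaks 138 bp away with DMSO, 38 bp with ATRA and 22 bp with ATRA+Corin. The region spanning it was covered over 2164 bp with DMSO, 2705 bp with ATRA, 3904 bp with Corin and 6255 bp with ATRA+Corin, where it held 2 peaks. A region 9.83 kb upstream held 30.0 fragments with DMSO (20.2 to 42.8), 47.2 with ATRA, 48.3 with Corin and 73.4 with ATRA+Corin (58.9 to 90.5), which lay beyond the DMSO interval. Relative to DMSO, 7 TLR1 regions were gained with both drugs and 0 lost, with a gain of 4 at a −log10 p of at least 5 and of 3 at this minimum and equal depth. Most were weak, and 1 of the 7 had a −log10 q of at least 5. Of the 7, 4 lay nearest to the start of TLR1 or TLR6, and the others lay nearest to TLR10.

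TLR6 (38822897 to 38856817) had 3 regions with DMSO, 3 with ATRA, 4 with Corin and 8 with ATRA+Corin, over 5.71, 7.13, 8.29 and 11 kb. Its start site was covered in every list but ATRA+Corin, where the nearest peak ended 15 bp short of it within a region of 2 peaks. Of the 250 bases before the start, 162 were covered there and 250 in each other list. The peak held 48.0 fragments with DMSO (35.4 to 63.6), 48.2 with ATRA, 72.9 with Corin (57.8 to 90.8) and 63.4 with ATRA+Corin (50.0 to 79.4). These intervals overlapped. Their summits lay 553, 605 and 1092 bp into the gene with DMSO, ATRA and ATRA+Corin, but 1100 bp upstream with Corin. The strongest summit of the whole region held 64.0 fragments with DMSO, 81.7 with ATRA, 72.9 with Corin and 70.9 with ATRA+Corin. A region 2.08 kb upstream of TLR6 was absent from the DMSO and ATRA lists and held 24.6 fragments with Corin (16.2 to 35.8) and 19.2 with ATRA+Corin (12.2 to 28.8). The 5 regions gained with ATRA+Corin became 3 at a −log10 p of at least 5 and 2 at this minimum and equal depth.

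TLR5, the flagellin receptor (chromosome 1, 223109404 to 223143248, minus strand), had 7 regions with DMSO, 6 with ATRA, 7 with Corin and 7 with ATRA+Corin, over 9.01, 12.4, 11.7 and 15.0 kb. Its start-site peak held 76.0 fragments with DMSO (59.9 to 95.1), 99.4 with ATRA (80.9 to 121), 50.1 with Corin (37.8 to 65.3) and 75.9 with ATRA+Corin (61.1 to 93.2). ATRA was the highest and Corin the lowest, and their intervals did not overlap each other. The intervals of both overlapped that of DMSO. In a broad region beginning 31.7 kb upstream, 7 DMSO peaks corresponded to 3 ATRA peaks, 4 Corin peaks and 1 unbroken ATRA+Corin peak, covering 4477, 6463, 4976 and 7163 bp. A region 4.95 kb into the gene held 21.0 fragments with DMSO (13.0 to 32.1), 40.3 with ATRA, 37.4 with Corin and 52.6 with ATRA+Corin (40.4 to 67.2), the last above DMSO beyond counting error. The ATRA difference of −1 region turned to +1 at a −log10 q of at least 5 and to +3 with single peaks and 50% overlap.

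TLR7 and TLR8, the endosomal RNA sensors, lie in tandem on the plus strand of chromosome X and share regions. The TLR7 start site (12867072) was under no peak in any list, and a peak came within 1 kb of it only with ATRA+Corin, 241 bp into the gene. That peak held 13.3 fragments (7.63 to 21.7), the lowest value among the start-site peaks. TLR7 had 6 regions with DMSO, 6 with ATRA, 7 with Corin and 12 with ATRA+Corin, over 3.71, 4.87, 5.82 and 10.1 kb. The intronic region 7.29 kb into TLR7, shown above, had no DMSO or ATRA peak and held 11.9 fragments with Corin (6.31 to 20.3) and 25.0 with ATRA+Corin (16.9 to 35.7), with −log10 q values of 1.85 and 9.38. Between the 2 genes, a region 4.57 kb upstream of TLR8 held 38.0 fragments with DMSO (26.9 to 52.2), 56.1 with ATRA, 68.4 with Corin (53.8 to 85.7) and 80.9 with ATRA+Corin (65.6 to 98.7). Both lists with Corin were above the DMSO interval.

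TLR8 (12906620 to 12923169) had 8 regions with DMSO, 9 with ATRA, 12 with Corin and 16 with ATRA+Corin, over 8.30, 9.84, 15.6 and 18.9 kb. The peak over or nearest to its start site held 26.0 fragments with DMSO (17.0 to 38.1), 24.6 with ATRA (15.9 to 36.3), 34.6 with Corin (24.5 to 47.5) and 46.7 with ATRA+Corin (35.3 to 60.7). The ATRA and Corin peaks did not cover the start and began 12 and 26 bp into the gene. The DMSO and ATRA+Corin intervals overlapped slightly. Coverage of the 250 bases before the start, printed above, was 29 with DMSO, 85 with ATRA, 0 with Corin and 250 with ATRA+Corin. The peak over the start was 214 bp wide with DMSO and 1213 bp wide with ATRA+Corin. Downstream, 3 regions starting 0.885, 1.43 and 2.55 kb into TLR8 were present in the ATRA+Corin list alone, with 25.0, 15.9 and 14.2 fragments. A region over a TLR8 exon, 11.9 kb in, was present with Corin (32.8 fragments) and ATRA+Corin (28.4 fragments) only. Relative to DMSO, 8 TLR8 regions were gained with both drugs and 0 lost, with a gain of 5 at a −log10 p of at least 5 and of 4 at this minimum and equal depth. Of the gained regions 1 lay, like the broad regions beyond 40 kb, nearest to TMSB4X.

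TLR9, the sensor of unmethylated DNA (chromosome 3, 52221080 to 52225645, minus strand), had the most regions, 12 with DMSO, 12 with ATRA, 11 with Corin and 27 with ATRA+Corin, over 21.5, 26.5, 24.7 and 37.3 kb. The gene lies among ALAS1, TWF2, PPM1M and WDR82, and ENSG00000173366 overlaps it. Of the 17 regions gained with ATRA+Corin against DMSO only 1 lay nearest to the TLR9 start, and with a window of 10 kb the difference was −1. The gain counted for TLR9 was therefore mainly one of neighbouring genes. The start-site peak held 106 fragments with DMSO (86.8 to 128), 78.7 with ATRA (62.4 to 98), 110 with Corin (91.5 to 132) and 123 with ATRA+Corin (104 to 144). The ATRA and ATRA+Corin intervals did not overlap. All 250 bases upstream were covered in every list. A region 5.10 kb from the start, just past the end of the gene, was in the ATRA+Corin list alone, with 28.4 fragments (19.6 to 39.6) and a −log10 q of 10.8. A region 38.8 kb away, nearest to ALAS1, held 66.0 fragments with DMSO (51.0 to 84.0), 153 with ATRA (130 to 180), 41.0 with Corin and 75.1 with ATRA+Corin, so ATRA stood above the other lists.

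Start sites of 7 of the 10 genes were under a peak with DMSO, 6 with ATRA, 7 with Corin and 6 with ATRA+Corin. Over all protein-coding genes the shares were 47.3%, 48.1%, 38% and 38%. A peak within 1 kb was found at 9, 9, 8 and 10 of the genes, beside 61.3%, 61.5%, 61.5% and 62.3%. In the DMSO list the order of fragments at the start was LY96 and TLR2 (109 each), TLR9 (106), TLR4 and TLR5 (76.0 each) and TLR6 (48.0), with TLR8 (26.0) the lowest of the covered start sites. The intervals of LY96, TLR2 and TLR9 overlapped, as did those of TLR4 and TLR5.

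**Figure D5:**
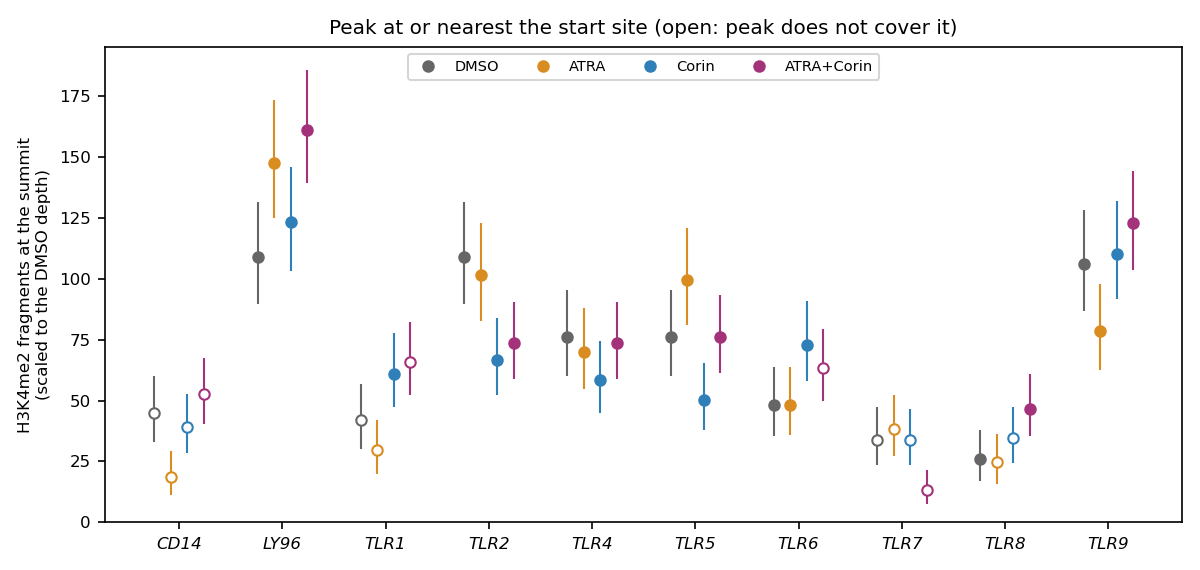
H3K4me2 fragments at the summit of the peak over or nearest to each start site (vertical axis, scaled to the DMSO depth), with 95% Poisson intervals; open points are peaks that do not cover the start site and may be different peaks in different lists. Summits of the same gene can lie at different positions between lists, as at TLR6. LY96 is highest with ATRA+Corin at 161, and TLR2 is lower in both lists with Corin (66.5 and 73.4) than with DMSO (109).

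Of 35 other genes of the pathway, including adaptors, kinases, transcription factors and inhibitors, 29 had at least 1 region gained with ATRA+Corin against DMSO, beside 67.8% of all genes, and 12 had at least 1 lost, beside 20.3%. The net difference was positive at 24, beside 62.2% of all genes, and negative at 3. Its median was 1, the same as over all genes. With ATRA, 21 had a gain (42% of all genes) and 17 a loss (24.8%), and with Corin 22 had a gain (54%) and 14 a loss (25.8%). The corresponding counts for the 10 genes were 9 with a gain and 4 with a loss for ATRA+Corin, 4 and 4 for ATRA, and 8 and 2 for Corin. CD180, which encodes a TLR4-like receptor of myeloid and B cells, had 7, 9, 11 and 13 regions with DMSO, ATRA, Corin and ATRA+Corin. IRAK1, a kinase downstream of MyD88, had 9, 9, 10 and 15. IRAK2, a related kinase, had 18, 15, 19 and 24, and TAB2, an adaptor of the kinase TAK1, had 6, 7, 5 and 12. TLR10, beside TLR1, had 7, 7, 8 and 12, and CD36, a scavenger co-receptor of TLR2, had 9, 10, 10 and 13. The TLR10 window overlaps that of TLR1, and most of its regions are also counted for TLR1. MYD88 had 4, 5, 6 and 7 regions, whereas TIRAP, the bridging adaptor of TLR2 and TLR4, had 8, 7, 7 and 8.

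The 5 motifs were searched in 300 bases around the summits, and matches were set beside those of all regions. The retinoid receptor half-site AGGTCA matched 14 of the 42 regions gained with ATRA+Corin, or 33.3% (21.0 to 48.4%), and 24.1% of all such regions. In the 58 regions of all 4 lists it matched 9, or 15.5% (8.38 to 26.9%), beside 20.9%. The C/EBP letters TTGCNNAA matched 14 of these 58, or 24.1% (15.0 to 36.5%), beside 13.4% of all regions in all 4 lists. In the gained regions they matched 7, or 16.7%, beside 18.4%, and in all 117 regions 24, or 20.5% (14.2 to 28.7%), beside 15.5%. PU.1 letters matched 29 of the 117 regions, or 24.8%, beside 29.6%, AP-1 letters 14, or 12.0%, beside 9.83%, and the NF-kappaB motif 20, or 17.1%, beside 18.1%. Of the 15 intervals, for 5 motifs in 3 sets of regions, that of C/EBP in the 58 shared regions was the only one that did not include the value over all regions of the same kind. In the 300 bases from 250 before to 50 after the start, PU.1 letters matched 4 of the 7 genes found in the RefSeq table (CD14, TLR4, TLR6 and TLR9), beside 27.9% of 35116 promoters, and AGGTCA matched 0 of 7, beside 13.8%.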

How the data were processed

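H3K4me2 was measured in U-937 cells, with 2 H3K4me2 libraries and 1 input per treatment per the labels. The deposited lists are 1 per treatment, so replicates were pooled by the authors. The lists are labelled as optimal peaks of a reproducibility overlap, and the rule of that step is not given. A region absent from a list may have been left out at that step and need not lack signal. Trimmomatic, Bowtie2, Picard, MACS2 and the build hg38 are named in the submitters' processing notes, while thresholds and versions are not given in the sources used here. The deposited score is the −log10 p multiplied by 10, without decimals and at most 1000, except in 7 ATRA and 9 Corin peaks. The deposited fold enrichment is a ratio over input at the summit, and the authors' −log10 p-value and −log10 q-value come with each peak. Folds and q-values were not compared between lists, and folds and p-values also served to recover fragments. No peak ran past a GRCh38 chromosome end, and coordinates are 1-based on GRCh38.

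Overlapping or touching peaks were merged across lists, and a region belonged to a gene if it met the gene body or lay within 50 kb of the canonical start (GENCODE release 44). The number of fragments at each summit was solved from the deposited fold (pseudocount 1) and Poisson −log10 p within 0.001, for 99.8% of DMSO, 97.6% of ATRA, 100% of Corin and 99.8% of ATRA+Corin peaks. The recovery was tested on simulated data. Relative depth came from the background of each list. Fragment intervals are exact Poisson, and shares have Wilson intervals. Depth per library is unknown.

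Named are all 10 genes, the 6 pathway genes with the largest net change with ATRA+Corin together with MYD88, TIRAP and TLR10, and for each of the 10 genes the region nearest to the start and the strongest gained and lost regions. Some marker and region results are not reported here. Further regions were described after their values were seen. The genes and lists were chosen with earlier results of these data known. The alternatives tried were lists of equal length, peaks with a −log10 q of 5 or more, peaks within 1 kb merged, 50% overlap of single peaks, windows of 10 and 100 kb, and regions nearest to one of the 10 genes. Promoter sequences came from RefSeq (GRCh38.p14) and matched 7 of the 10 genes. Python 3.11.15, numpy 2.4.6, pandas 2.3.3, scipy 1.17.1 and pysam 0.24.0 were used.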

Additional observations from a re-analysis of the deposited data

How the results depend on the processing

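No paired analysis was possible because the replicates were pooled into 1 list per treatment, and leaving out a replicate could not be run for the same reason. Of the comparisons over all 10 genes and the counts of covered start sites, 91 alternative values lay within the interval, or within 1.5 times the count, of the reported ones and 29 did not. Requiring a −log10 q of at least 5, the combination gained 22.5% against ATRA and 20% against Corin. The shares of all regions were 19.4% and 18.8%. The combination lost 1.30% against DMSO, beside 3.67%. With lists made equally long, the combination gained 20% against DMSO, 21.2% against ATRA and 13.1% against Corin, beside 21.3%, 15.6% and 15.5% of all regions. With peaks within 1 kb merged, Corin gained 7.27% against DMSO, beside 17.6% of all regions. The combination then gained 25.0% against DMSO, 25.0% against ATRA and 19.7% against Corin, beside 27.8%, 21.1% and 18.3%. It lost 1.52% against Corin, beside 4.07%. Single peaks with 50% overlap gave gains of 20.9% for ATRA, 34.0% for Corin and 52.5% for the combination against DMSO. For ATRA against DMSO the gained share was 3.03% in a window of 10 kb and 2.50% for regions nearest to one of the 10 genes. Added after the data were seen were a −log10 p of at least 5 and the same minimum at equal depth. With the minimum alone the combination gained 29.1% against DMSO, 25.3% against ATRA and 18.6% against Corin, beside 32.0%, 22.8% and 21.3% of all regions, and lost 2.33% against DMSO and 2.33% against Corin, while Corin lost 1.41% against DMSO. At equal depth it gained 26.5%, 23.8% and 18.1%, beside 29.0%, 21.6% and 20.6%, and lost 2.41% against DMSO and 2.41% against Corin. The gained share against Corin was above that of all regions in the lists as deposited. It was below with equal list lengths, with the −log10 p minimum and at equal depth. It stayed above at a −log10 q of at least 5 and with merged peaks. Without the TLR9 window, also added later, the combination gained 20% against Corin, below the 24% of all regions in the lists as deposited. A peak within 1 kb of the start was found at 10 genes with the combination. The cause of these shifts was not tested beyond the construction of each alternative.

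For single genes, 198 values kept their sign within 1.5 times, 239 differed more and 13 changed sign. For the combination against ATRA, TLR4 had −1 at a −log10 q of at least 5, −1 with equal list lengths and −1 at equal depth, and TLR5 had −1 with a 10 kb window. Against DMSO, TLR4 had −1 with equal list lengths and TLR9 had −1 with a 10 kb window for the combination, TLR5 had 1 at a −log10 q of at least 5 and 3 with single peaks for ATRA, and TLR9 had 1 at a −log10 p of at least 5 and 1 at equal depth for Corin. For the combination against Corin, CD14 had 1 with merged peaks, 1 with a 10 kb window and 1 at equal depth. Depth limits the weakest peaks, which held 10 or 11 fragments.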
